A study of Mus musculus with 8 samples.

Results

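The genes of cholesterol synthesis, uptake and efflux were followed in epididymal white adipose tissue of male mice. They were chosen by name from the table of gene expression, and 31 of its 28295 genes belong to the set. Of these, 20 encode enzymes of synthesis, from acetoacetyl-CoA thiolase to the last reductases, and 11 act in lipoprotein uptake, in movement and storage of cholesterol within the cell, and in efflux. Other enzymes and receptors of the pathway were not analysed here. All mice carried Cul3-flox/flox alleles, were fed a Western diet for 8 weeks and were fasted for 6 h before the fat was taken. The 4 WT libraries came from mice without Cre, and the 4 KO libraries from mice with AdipoQ-Cre as well, a recombinase under the promoter of the adiponectin gene, which is active in adipocytes. Cullin 3, the product of Cul3, is a scaffold on which ubiquitin ligases are built. The question is what changes in the fat's transcripts when adipocytes lose it. The labels do not say which mouse each library came from, so the p-values measure the spread between these libraries.

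Cholesterol is built from acetyl-CoA by way of mevalonate, isoprenoid units, squalene and lanosterol, and the later steps run in the endoplasmic reticulum. When sterols there are scarce, SCAP carries the transcription factor SREBP2 to the Golgi, where it is released by cleavage and then drives most genes of synthesis and lipoprotein uptake. When sterols are plentiful, INSIG proteins hold SCAP back, and oxysterols activate the LXR receptors, which drive efflux transporters. White fat holds a large store of free cholesterol in its adipocytes, much of it taken up from lipoproteins, and its macrophages also take up and export cholesterol.

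Promoter sequence was looked at first because SREBP2 acts on these genes together with the factor NF-Y. RefSeq promoter windows, 250 bases before to 50 after the start site in build GRCm38.p6, matched 24 of the 31 genes, 17 of synthesis and 7 of the others. Both strands were searched for 4 sets of letters, none of which contains another. These were TCACNCCAC for a sterol regulatory element (SRE), CCAAT for the NF-Y box, CACGTG for an E-box and GGGCGG for a GC box. A gene with several windows was counted where any of them held the letters. The NF-Y letters were in 16 of 17 synthesis genes (94.1%) and in 4 of 7 of the other genes (57.1%). They were in 42.6% of the 10103 tested genes with a window and in 37.4% of all 32851 windows, each counted by itself. Acat2 was the synthesis gene with a window but without these letters. The SRE letters were in the window of Hmgcs1 alone among these genes, against 1.44% of tested genes and 1.24% of all windows. E-box letters were in Hsd17b7, Sc5d, Dhcr7 and Abca1, against 11.6% of tested genes and 7.15% of all windows. The GC box was in 88.2% of the synthesis genes with a window and 85.7% of the others. It was in 67.1% of tested genes and 35.7% of all windows. A match is a description of the letters and not a measured binding site.

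**Figure D1:**
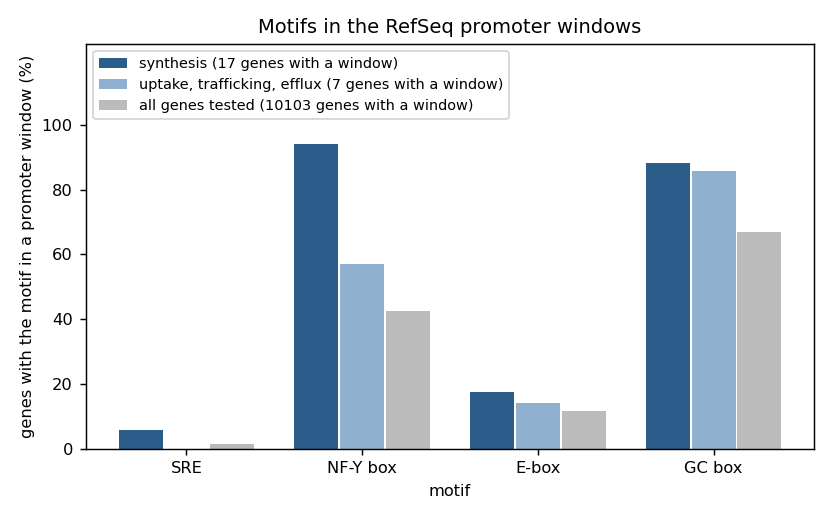
Share of genes with each motif in a promoter window (y axis, percent), for synthesis genes (17 with a window), genes of uptake, trafficking and efflux (7) and all tested genes with a window (10103). The NF-Y box stood at 94.1%, 57.1% and 42.6% in these 3 sets, and the SRE at 5.88%, 0% and 1.44%.

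The stretches before the start sites of 7 genes are shown to set the letters beside the expression values that follow. Hmgcs1 carries the SRE, and Mvk, Lss and Nsdhl are enzyme genes of 3 stages that were lower in the KO-labelled libraries. Sc5d was lower and carries an E-box, Lbr carries the NF-Y letters and did not pass the test, and Abca1 is an efflux gene without the NF-Y letters that did not pass it either. Capitals mark the SRE, the NF-Y box (CCAAT or, on the other strand, ATTGG) and the E-box. Each is written 5′ to 3′ on the strand of its gene, and the sequences are RefSeq's. The stretch of Lbr lies in an intron of its GENCODE M21 gene model, and the other 6 lie upstream of theirs.
Hmgcs1, chr13:119690151-119690350 (plus strand): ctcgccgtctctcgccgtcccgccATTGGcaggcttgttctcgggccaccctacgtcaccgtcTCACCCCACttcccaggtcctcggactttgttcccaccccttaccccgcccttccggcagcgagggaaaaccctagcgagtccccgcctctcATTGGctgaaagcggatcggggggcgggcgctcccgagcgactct
Mvk, chr5:114444069-114444268 (plus strand): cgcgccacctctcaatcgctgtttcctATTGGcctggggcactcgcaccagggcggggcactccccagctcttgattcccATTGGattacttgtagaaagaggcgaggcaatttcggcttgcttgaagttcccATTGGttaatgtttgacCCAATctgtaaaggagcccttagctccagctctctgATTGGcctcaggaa
Lss, chr10:76531388-76531587 (plus strand): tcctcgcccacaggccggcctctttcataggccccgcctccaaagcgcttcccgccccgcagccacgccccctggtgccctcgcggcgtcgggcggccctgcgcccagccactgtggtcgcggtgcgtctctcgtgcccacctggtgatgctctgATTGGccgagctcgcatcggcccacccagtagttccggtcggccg
Nsdhl, chrX:72918412-72918520 (plus strand): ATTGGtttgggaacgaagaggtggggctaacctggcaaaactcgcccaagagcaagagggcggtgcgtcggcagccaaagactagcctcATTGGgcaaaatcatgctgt
Sc5d, chr9:42264301-42264500 (minus strand): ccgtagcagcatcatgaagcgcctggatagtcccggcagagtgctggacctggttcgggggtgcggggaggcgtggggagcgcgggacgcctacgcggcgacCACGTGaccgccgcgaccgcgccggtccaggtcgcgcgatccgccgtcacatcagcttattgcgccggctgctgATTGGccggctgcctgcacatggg
Lbr, chr1:181842402-181842601 (minus strand): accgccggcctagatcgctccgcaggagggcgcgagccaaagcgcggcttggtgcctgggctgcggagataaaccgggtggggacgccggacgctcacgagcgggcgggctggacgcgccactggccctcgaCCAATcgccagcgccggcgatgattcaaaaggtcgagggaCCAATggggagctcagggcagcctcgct
Abca1, chr4:53159896-53160095 (minus strand): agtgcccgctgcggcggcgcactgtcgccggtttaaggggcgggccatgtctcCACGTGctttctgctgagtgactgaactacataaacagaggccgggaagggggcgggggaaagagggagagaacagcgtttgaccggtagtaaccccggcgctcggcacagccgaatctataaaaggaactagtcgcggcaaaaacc
The SRE of Hmgcs1 reads TCACCCCAC and lies at -137 to -129 from the start site, between NF-Y boxes at -176 and -45. Mvk has 5 NF-Y boxes in the stretch shown. Lbr, which did not pass the test, has the NF-Y letters as most lowered enzyme genes do. Among genes with a window, they were in 13 of 14 lowered synthesis genes and in 3 of 3 that were not called.

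The libraries held 15.2 to 19.7 M reads in listed genes (M, 1000000 reads, recovered from the FPKM values). FPKM counts fragments per kilobase of gene per M, and log2 fold changes below are differences of log2(FPKM + 0.5), which understates the change of low genes. Listed genes made up 74.1% to 78.7% of the FPKM denominator in WT and 62.6% to 66.1% in the libraries labelled KO. Scaling to listed reads moved the median over all tested genes from -0.02 to 0.20 on the log2 scale, and scaling to a common sum moved it to 0.24. Cul3 itself was 11.2 ± 1.13 FPKM in WT against 12.0 ± 1.28 FPKM in the libraries labelled KO (SD, n = 4 each; limma log2 fold change 0.09, adjusted p = 0.520; exact two-sided permutation test, p = 0.429). It was called higher scaled to a common sum (0.37, adjusted p = 0.0477 by limma) and to listed reads (0.34, adjusted p = 0.0396). Deleted and kept exons are not told apart by one value for the whole gene. The Cul3 transcript therefore gives no check on the genotype, and "KO-labelled" is used for the second group, since each direction depends on its label. Of 14400 genes tested, 2683 were lower (18.6%) and 1689 higher (11.7%) at a limma adjusted p under 0.05.

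Markers of other cells differed too, in ways that touch the genes below. The 10 adipocyte markers summed to 4170 to 5612 FPKM in WT against 1844 to 2511 FPKM in the KO-labelled libraries, and 9 of the 10 were lower. Their log2 fold changes ran from -3.34 (Lep) to -0.07 (Pck1), with a median of -0.78, and the groups overlapped in Plin1, Slc2a4 and Pck1. The 14 macrophage markers summed to 571 to 1573 FPKM in WT against 790 to 1855 FPKM in the KO-labelled libraries, with 7 of 14 higher. WT4 (1573) lay among the KO-labelled libraries and KO4 (790) near the other 3 of WT (571 to 670). The 8 liver markers summed to 131 FPKM in WT1 and 488 FPKM in WT2, and to 4.56 to 36.3 FPKM in the other 6 libraries, and 4 of the 8 were lower. The 8 endothelial markers, all of which were lower, summed to 249 to 354 FPKM in WT against 166 to 193 FPKM in the KO-labelled libraries. None of the 5 mesothelial markers (15.1 to 48.9 against 26.5 to 45.5 FPKM) and 2 of the 6 stromal progenitor markers (305 to 651 against 250 to 293 FPKM), both lower, passed the test. No marker was at 0 in any library. In bulk tissue, fewer cells of a type and less RNA per cell cannot be told apart.

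Most of the synthesis genes followed here were lower in the KO-labelled fat. Of the 20, 19 were tested, since Fdps fell below the minimum mean of 0.5 FPKM. Of the 19, 15 were lower and none higher, with a median log2 fold change of -1.0, against 18.6% lower and a median of -0.02 over all genes tested. In each of the 15, every KO-labelled library lay below every WT library, which held for 19.1% of all genes tested. The lowered genes were the 5 of the mevalonate stage, 2 of 3 of the squalene and lanosterol stage and 8 of 9 after lanosterol. Idi1, Ggps1, Fdft1 and Lbr did not pass the test. The other 11 genes were split: 4 were lower, 1 was higher and 6 did not pass the test, with a median of -0.00. All KO-labelled libraries lay below all WT libraries in those 4, and in none of the 11 did all lie above (12.1% of all genes tested). The same 15 synthesis genes were called lower under each of 4 other scalings and with any 1 library left out. Relative to the adipocyte markers, 5 of them were called lower.

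**Figure D2:**
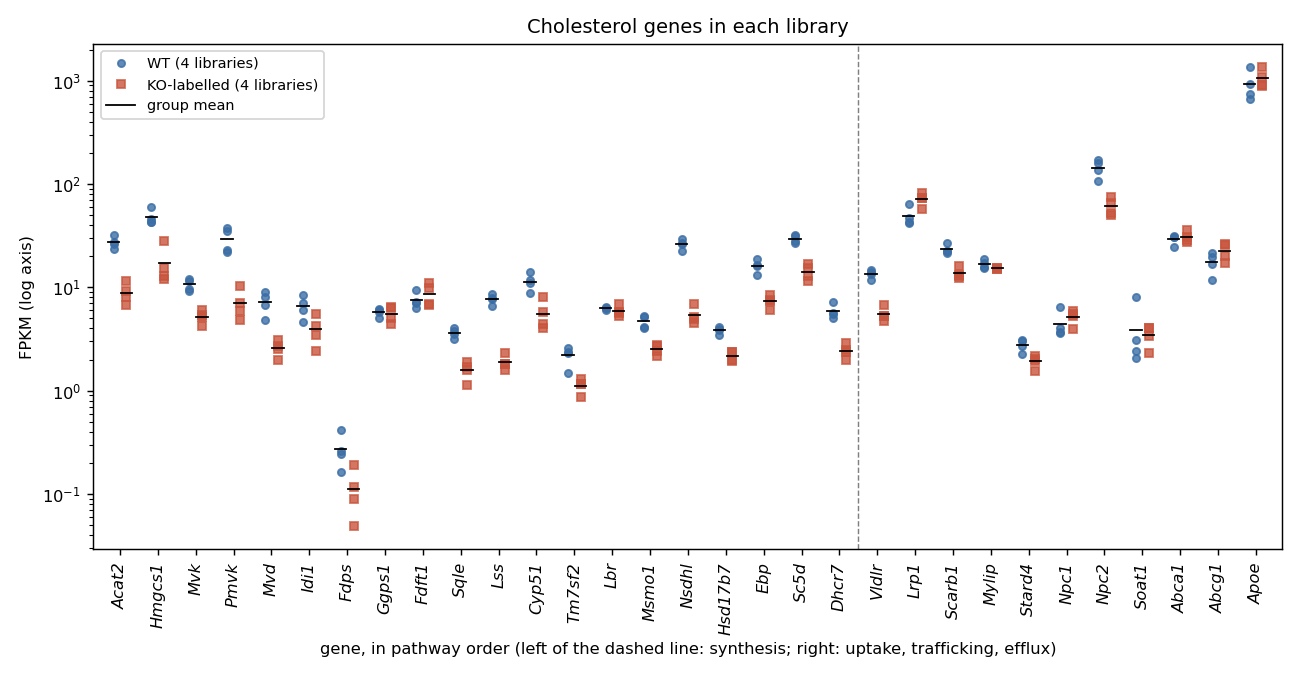
FPKM of the 31 genes in each library on a log axis, in pathway order, with WT (circles, 4 libraries) and KO-labelled libraries (squares, 4) side by side and a line at each group mean. Synthesis genes lie left of the dashed line; from Sqle to Dhcr7 the groups are apart for every gene but Lbr, while most genes on the right overlap.

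The first stage leads from acetyl-CoA to isopentenyl diphosphate. Acat2 (ENSMUSG00000023832, chromosome 17, 12942890 to 12960747, build mm10), a cytosolic thiolase that joins acetyl-CoA units, was 32.3, 26.3, 27.6 and 23.6 FPKM in WT1, WT2, WT3 and WT4, against 9.16, 6.74, 8.07 and 11.5 FPKM in KO1, KO2, KO3 and KO4. The highest KO-labelled value was below the lowest WT value, and the means were 27.5 ± 3.63 and 8.86 ± 2.0 FPKM (SD, n = 4 each; log2 fold change -1.6 ± 0.16, SE; limma adjusted p = 0.000257). At 95% identity over at least 200 bases, 65.6% of its transcript is matched by Acat3 and Tcp1, so some of its reads could have been assigned to them or from them. Acat3 was at most 0.877 FPKM, and Tcp1 was 22.1 ± 1.47 FPKM in WT against 19.0 ± 1.64 FPKM in the KO-labelled libraries (limma adjusted p = 0.0920).

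Hmgcs1 (ENSMUSG00000093930, chromosome 13, 119690379 to 119708260), the cytosolic HMG-CoA synthase with the SRE shown above, was the most abundant synthesis transcript per length. Its WT values were 60.5, 43.2, 45.6 and 43.1 FPKM, and its KO-labelled values were 12.0, 12.8, 15.4 and 27.8 FPKM. WT1 stood above the other 3 of WT, KO4 stood above the other 3 of its group, and the groups did not overlap. The means of 48.1 ± 8.35 and 17 ± 7.34 FPKM gave a log2 fold change of -1.54 ± 0.25 (limma adjusted p = 0.00274).

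The kinases that phosphorylate mevalonate and the decarboxylase that follows them were also lower. Mvk, mevalonate kinase, was 12.1, 11.6, 9.72 and 9.23 FPKM in WT against 6.09, 5.34, 4.24 and 5.12 FPKM in the KO-labelled libraries (-0.97 ± 0.12, limma adjusted p = 0.000799). Pmvk (chromosome 3, 89454541 to 89469013), phosphomevalonate kinase, was 34.8, 37.3, 23.0 and 21.9 FPKM against 10.2, 5.86, 4.82 and 7.05 FPKM (-2.0 ± 0.25, limma adjusted p = 0.000752). Within WT it was high in WT1 and WT2, the libraries with the highest liver marker levels, and WT3 and WT4 still lay above every KO-labelled library. Mvd, mevalonate diphosphate decarboxylase, was 9.05, 8.04, 4.83 and 6.8 FPKM against 3.10, 2.52, 2 and 2.72 FPKM (-1.30 ± 0.19, limma adjusted p = 0.00149). The means of Pmvk differed 4.19-fold, those of Mvd 2.78-fold and those of Mvk 2.05-fold.

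The isoprenoid stage, which makes the farnesyl and geranylgeranyl chains used both for sterols and for anchoring proteins to membranes, had no called gene. Idi1, the isomerase of isopentenyl diphosphate, was 8.49, 4.63, 7.08 and 6.02 FPKM in WT against 2.44, 3.46, 4.24 and 5.49 FPKM in the KO-labelled libraries. KO4 lay above WT2, so the groups overlapped, and the log2 fold change of -0.70 (95% interval -1.24 to -0.16) missed the threshold (limma adjusted p = 0.0544). It was called lower without WT2 (-0.84, adjusted p = 0.0389) or without KO4 (-0.86, adjusted p = 0.0262). At 95% identity over at least 200 bases, 33.3% of the Idi1 transcript is matched by 3 other genes, so some reads could have been misassigned. The highest of these genes, Gm13502, was 0.650 ± 0.055 FPKM in WT against 0.416 ± 0.068 FPKM in the KO-labelled libraries. Ggps1, which makes geranylgeranyl diphosphate, was 5.76, 6.15, 6.07 and 5.03 FPKM against 4.42, 5, 6.43 and 6.35 FPKM. Its groups overlapped, and its interval ran from -0.34 to 0.23 (limma adjusted p = 0.747). Of the Ggps1 transcript, 27.3% is matched in the same way by Arid4b and Gm5630, so the same limit holds.

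Fdps, farnesyl diphosphate synthase, could not be read from its own row. It was listed at 0.242, 0.417, 0.259 and 0.164 FPKM in WT against 0.0897, 0.0485, 0.118 and 0.192 FPKM in the KO-labelled libraries, from 5 to 42 recovered reads per library. Of its longest coding transcript of 1382 bases, 91.4% is matched at 95% identity or more by 5 other genes, 4 of them pseudogenes, so reads of Fdps may have been dropped or split. One of these, Gm3571, was singled out after its values were seen. Its level was 5.14, 5.08, 3.58 and 3.80 FPKM in WT against 0.874, 0.924, 0.779 and 1.18 FPKM in the KO-labelled libraries. The means were 4.40 ± 0.826 and 0.940 ± 0.172 FPKM (log2 fold change -1.76 ± 0.14, limma adjusted p = 0.000103). Whether those reads came from Fdps or from the copy cannot be told apart in this table.

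The next stage joins farnesyl units to squalene and closes the ring to lanosterol. Fdft1, squalene synthase, was 7.28, 7.10, 9.36 and 6.24 FPKM in WT against 6.67, 6.90, 9.79 and 11.1 FPKM in the KO-labelled libraries. The groups overlapped, and the log2 fold change was 0.17 (95% interval -0.24 to 0.58; limma adjusted p = 0.502). Fdft1 shares 18.3% of its exon bases with Ctsb, an abundant cathepsin gene on the opposite strand (342 ± 84.7 FPKM in WT against 285 ± 48.6 FPKM in the KO-labelled libraries). Without a stated strand setting, reads of Fdft1 and Ctsb cannot be told apart there. Of the longest coding Fdft1 transcript, 54.7% is matched at 95% identity or more by Ctsb and the pseudogene Gm6781, so some reads could have been misassigned.

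Sqle, squalene epoxidase, which adds the oxygen before ring closure, was 3.81, 3.15, 3.55 and 4.06 FPKM against 1.70, 1.6, 1.14 and 1.91 FPKM. Its groups did not overlap (log2 fold change -1.0 ± 0.13, limma adjusted p = 0.000912). Lss (ENSMUSG00000033105, chromosome 10, 76531588 to 76557138), lanosterol synthase, was 8.60, 7.73, 7.83 and 6.53 FPKM in WT against 1.82, 1.79, 1.6 and 2.33 FPKM in the KO-labelled libraries. All 4 KO-labelled values were far below the lowest of WT, with means of 7.67 ± 0.858 and 1.89 ± 0.312 FPKM (-1.78 ± 0.11, limma adjusted p = 4.07e-05), a 4.07-fold difference of means.

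After lanosterol, methyl groups are removed and double bonds are moved and reduced. Nsdhl (ENSMUSG00000031349, chromosome X, 72918557 to 72958514), the dehydrogenase of C4 demethylation, had the lowest log2 fold change of the 30 tested genes. It was 29.4, 26.4, 26.7 and 22.2 FPKM in WT against 4.94, 5.11, 4.54 and 6.95 FPKM in the KO-labelled libraries. The groups were far apart, and the means of 26.2 ± 2.97 and 5.39 ± 1.07 FPKM differed 4.86-fold (-2.19 ± 0.13, limma adjusted p = 3.35e-05). Its partners in the same demethylation were lower by less. Msmo1, the C4 methyl oxidase, was 5.18, 4.06, 4.15 and 5.29 FPKM against 2.44, 2.15, 2.77 and 2.70 FPKM (-0.78 ± 0.11, limma adjusted p = 0.00148). Hsd17b7, the keto reductase, was 4.10, 3.99, 3.47 and 3.86 FPKM against 1.96, 2.35, 1.95 and 2.36 FPKM (-0.72 ± 0.09, limma adjusted p = 0.000758). The difference between Nsdhl and its partners was not tested.

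Cyp51, the demethylase that acts first on lanosterol, was 13.9, 10.9, 8.72 and 11.7 FPKM in WT against 5.74, 4.42, 4.05 and 8.01 FPKM in the KO-labelled libraries (-0.99 ± 0.21, limma adjusted p = 0.00908). The next reduction can be made by either of a pair of proteins, and their values differed. Tm7sf2, a reductase of the endoplasmic reticulum, was 2.6, 2.37, 1.48 and 2.33 FPKM against 1.17, 0.861, 1.15 and 1.29 FPKM (-0.73 ± 0.16, limma adjusted p = 0.00960). Lbr, the lamin B receptor of the inner nuclear membrane, which has the same activity, was 6.08, 6.47, 6.28 and 6.31 FPKM against 5.66, 6.94, 5.73 and 5.33 FPKM. Lbr overlapped between groups, with an interval of -0.28 to 0.11 on the log2 scale (limma adjusted p = 0.467). Tm7sf2 shares 12.1% of its exon bases with Vps51 on the same strand, so reads of the genes cannot be told apart there. The calls of Cyp51 and Tm7sf2 were lost when both WT1 and WT2 were left out (-0.85, adjusted p = 0.0901, and -0.56, adjusted p = 0.107), the libraries with the highest liver marker levels. The other 13 kept theirs.

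The last steps run through Ebp, Sc5d and Dhcr7, whose loss each causes an inborn error of sterol synthesis. Ebp, the sterol isomerase, was 18.8, 16.4, 13.1 and 15.9 FPKM in WT against 8.39, 7.42, 6.08 and 7.50 FPKM in the KO-labelled libraries (-1.07 ± 0.13, limma adjusted p = 0.000600). Sc5d, the desaturase, was 32.2, 26.7, 31.3 and 28.0 FPKM against 11.6, 15.4, 12.7 and 17 FPKM (-1.05 ± 0.13, limma adjusted p = 0.000673). Dhcr7, which reduces 7-dehydrocholesterol, was 7.28, 5.58, 5.10 and 5.69 FPKM against 2.48, 2.92, 1.99 and 2.38 FPKM (-1.12 ± 0.13, limma adjusted p = 0.000506). In each of the 3 genes every KO-labelled library was below every WT library, and the means differed by 2.08-fold to 2.42-fold.

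**Figure D3:**
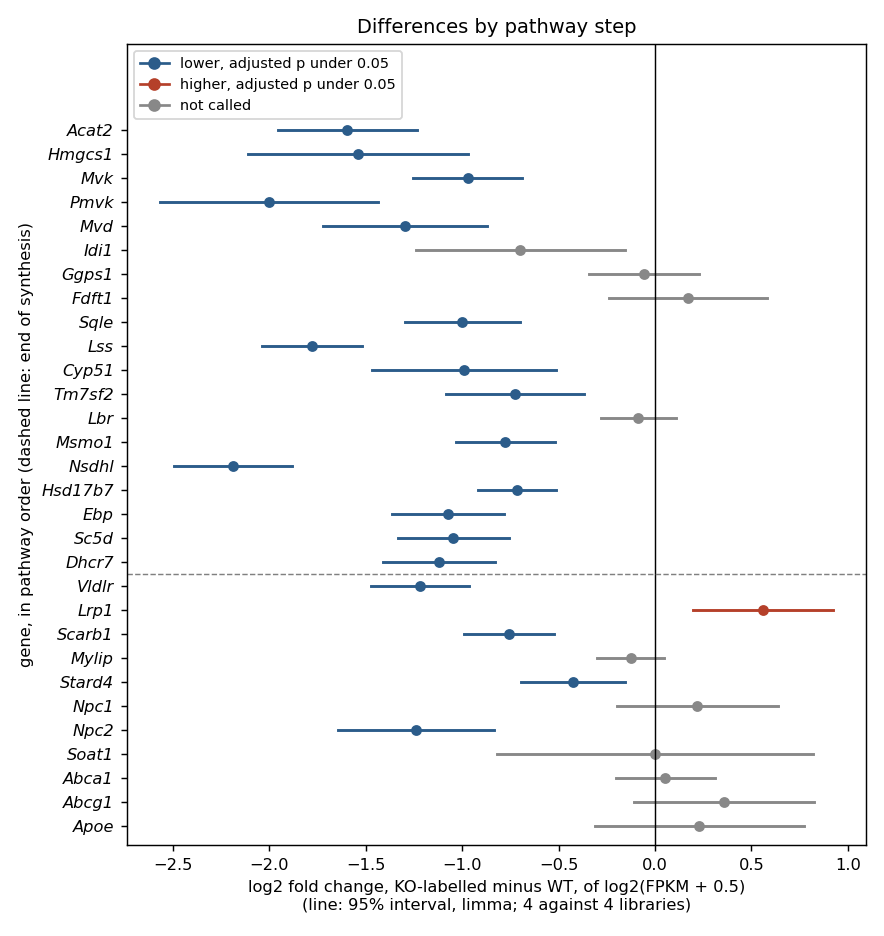
Log2 fold change (x axis, KO-labelled minus WT, 95% limma interval) of the 30 tested genes in pathway order, with genes called lower in blue, called higher in red and not called in grey. The synthesis genes above the dashed line run from -2.19 (Nsdhl) to 0.17 (Fdft1), and those below it from -1.24 (Npc2) to 0.56 (Lrp1).

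Within the groups the synthesis genes had an order of libraries. WT1 held the highest WT value in 13 of the 19 tested genes, and WT4 the lowest in 8. KO4 held the highest KO-labelled value in 11 of 19, and KO3 the lowest in 10. The summed level was 302, 258, 245 and 234 FPKM in WT1 to WT4, against 102, 99.5, 98.8 and 135 FPKM in KO1 to KO4, so the groups did not overlap. WT4 also had the lowest adipocyte marker level of its group (4170 FPKM), and KO4 the highest (2511 FPKM) and KO3 the lowest (1844 FPKM) of theirs. In WT the highest adipocyte marker level was in WT2 (5612 FPKM) and not in WT1 (5525 FPKM). The part of the adipocyte marker level in this order was not tested.

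Relative to the adipocyte markers, fewer synthesis genes were lower. The median log2 value of the 10 adipocyte markers was subtracted in each library, an alternative chosen after the data were seen. By limma on these values, Nsdhl (-1.33), Pmvk (-1.15), Lss (-0.93), Acat2 (-0.74) and Hmgcs1 (-0.69) were lower, and Fdft1 (1.03), Ggps1 (0.80) and Lbr (0.77) were higher. The other 11 tested synthesis genes did not pass the test. On that scale 178 of all genes were lower and 11391 higher, so it sets each gene beside markers that were themselves lower.

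Among the uptake genes the lipoprotein receptors moved in different directions. Vldlr (ENSMUSG00000024924, chromosome 19, 27216484 to 27254231), the receptor for very-low-density lipoprotein, was 13.5, 13.9, 14.6 and 11.7 FPKM in WT against 4.77, 5.28, 5.22 and 6.74 FPKM in the KO-labelled libraries. The groups were far apart, with means of 13.4 ± 1.22 and 5.50 ± 0.858 FPKM (log2 fold change -1.22 ± 0.11, limma adjusted p = 0.000176). Scarb1 (chromosome 5, 125277087 to 125341094), the high-density lipoprotein receptor SR-BI, was 26.9, 21.6, 22.4 and 22.6 FPKM against 12.4, 12.9, 13.3 and 15.9 FPKM. Its groups did not overlap either, and its log2 fold change was -0.76 ± 0.10 (limma adjusted p = 0.00108). Mylip, the ubiquitin ligase IDOL, which is an LXR target and marks lipoprotein receptors for degradation, was 15.6, 18.6, 15.4 and 17.1 FPKM against 15.1, 15, 15.5 and 15.2 FPKM. It did not pass the test (95% interval -0.30 to 0.05, limma adjusted p = 0.242). Relative to the adipocyte markers, Vldlr was still called lower (-0.37, limma adjusted p = 0.0344) and Scarb1 was not (0.0959, adjusted p = 0.569).

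Lrp1 (ENSMUSG00000040249, chromosome 10, 127538161 to 127621148), a large endocytic receptor for remnant lipoproteins found on adipocytes and macrophages, was the only gene of the 31 called higher (11.7% of all genes tested). It was 41.9, 42.8, 47.2 and 63.7 FPKM in WT against 73.7, 82.4, 73.9 and 57.7 FPKM in the KO-labelled libraries. WT4 lay above KO4, so the groups overlapped, and the means were 48.9 ± 10.1 and 71.9 ± 10.3 FPKM (0.56 ± 0.16, limma adjusted p = 0.0282). The call was lost without WT1 (0.49, adjusted p = 0.0813), WT2 (0.50, 0.0737), WT3 (0.55, 0.0615), KO1 (0.55, 0.0580), KO2 (0.49, 0.0778) or KO3 (0.54, 0.0721), and without both WT1 and WT2 (0.38, 0.232). WT4 and KO4 are the libraries whose macrophage marker level lay nearest the other group.

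Of the genes that move and store cholesterol within the cell, Npc2 (chromosome 12, 84754562 to 84773152), a small lysosomal protein that binds cholesterol released from lipoproteins, was lower. It was 172, 138, 108 and 160 FPKM in WT against 75.0, 65.1, 50.6 and 51.9 FPKM in the KO-labelled libraries. No values overlapped, and the means were 144 ± 28.0 and 60.7 ± 11.6 FPKM (-1.24 ± 0.18, limma adjusted p = 0.00147). Relative to the adipocyte markers it was not called (-0.38, limma adjusted p = 0.153). Npc1, the lysosomal membrane protein that takes cholesterol over from Npc2, was 3.72, 3.58, 4.08 and 6.41 FPKM against 5.55, 5.88, 5.32 and 3.95 FPKM. WT4 was the highest of all 8 libraries, the groups overlapped, and the log2 fold change was 0.22 (95% interval -0.20 to 0.64, limma adjusted p = 0.395). Npc1 shares 4.51% of its exon bases with Rmc1 on the opposite strand, which was 7.70 FPKM in WT against 4.85 FPKM in the KO-labelled libraries.

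Stard4, a soluble carrier that moves cholesterol between membranes, was 2.99, 2.25, 2.68 and 3.11 FPKM in WT against 2.17, 2.01, 1.56 and 1.95 FPKM in the KO-labelled libraries. The groups did not overlap, yet they lay close together (-0.43 ± 0.12, limma adjusted p = 0.0267). The call was lost scaled to a common sum (-0.24, adjusted p = 0.224) and to listed reads (-0.23, adjusted p = 0.182), and when any 1 of WT1, WT3, WT4, KO2 and KO3 was left out (adjusted p from 0.0521 to 0.0769). Soat1, the acyltransferase that makes cholesterol esters, was 3.09, 2.05, 2.39 and 8.05 FPKM against 4.08, 4.01, 3.40 and 2.31 FPKM. WT4 was by far the highest library and KO4 the lowest of its group, and the log2 fold change was -0.00 (95% interval -0.82 to 0.82, limma adjusted p = 0.998). It was 0.38 without WT4 (limma adjusted p = 0.172).

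None of the 3 efflux genes passed the test. Abca1 (ENSMUSG00000015243, chromosome 4, 53030787 to 53159895), the transporter that loads cholesterol onto apolipoprotein A-I, was 30.9, 24.6, 31.3 and 31 FPKM in WT against 27.5, 35.5, 30.8 and 28.5 FPKM in the KO-labelled libraries. The groups overlapped closely, with a 95% interval of -0.20 to 0.31 on the log2 scale (limma adjusted p = 0.749). Abcg1, which exports cholesterol to high-density lipoprotein, was 19.7, 11.7, 16.9 and 21.3 FPKM against 25.5, 26.5, 20.1 and 17 FPKM. It was high in KO1 and KO2 and low in WT2, and its interval ran from -0.11 to 0.82 (limma adjusted p = 0.216). Apoe (chromosome 7, 19696109 to 19699188), the apolipoprotein that macrophages and adipocytes secrete with lipid, had the highest FPKM of the 31 genes. It was 931, 1350, 668 and 737 FPKM in WT against 1357, 1073, 883 and 910 FPKM in the KO-labelled libraries, with the high WT value in WT2, where liver markers were highest (95% interval -0.31 to 0.77, limma adjusted p = 0.497). Abcg1 was called higher by voom on recovered reads (0.62, adjusted p = 0.0461), and Apoe after quantile normalization (0.61, limma adjusted p = 0.0433).

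Set beside the macrophage markers, Lrp1, Npc1 and Soat1 shared a pattern over libraries. In each of them WT4 was the highest WT library and KO4 the lowest KO-labelled one, as in the summed macrophage level. Abcg1 had the same pair of libraries at these places. Abca1, Apoe, Hmgcs1 and Nsdhl did not. The pair is not particular to the macrophage list. By the summed stromal progenitor markers, too, WT4 was the highest WT library (651 FPKM) and KO4 the lowest KO-labelled one (250 FPKM). By the adipocyte sum they were reversed, with WT4 the lowest of WT (4170 FPKM) and KO4 the highest of its group (2511 FPKM). Leaving out WT4 and KO4 gives a larger difference in such genes by construction, so fits without these libraries are no test of this pattern. The part of macrophages or of other cells in these values was not tested.

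**Figure D4:**
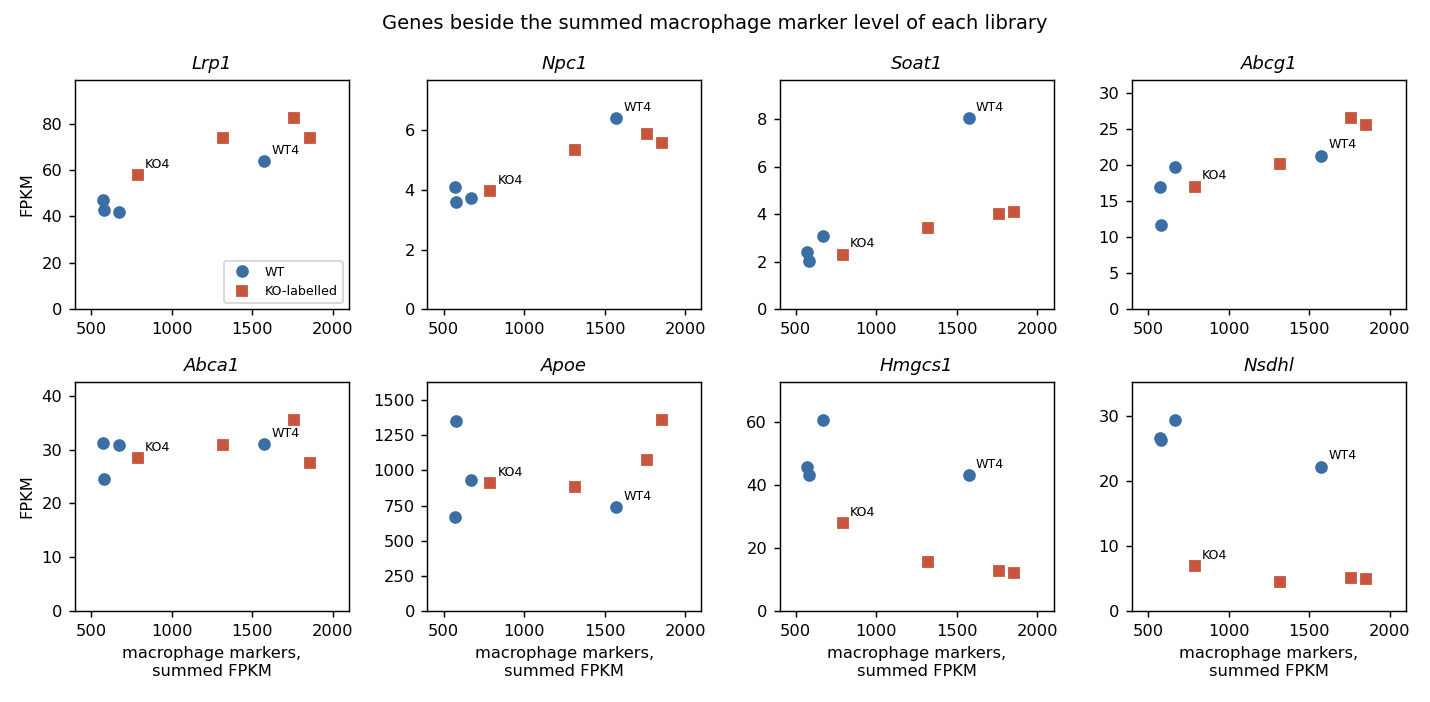
FPKM of 8 genes (y axis) beside the summed FPKM of 14 macrophage markers (x axis), each point 1 library (circles WT, squares KO-labelled), with WT4 and KO4 named. In the Lrp1, Npc1, Soat1 and Abcg1 panels WT4 stands above the other WT libraries and KO4 below the other KO-labelled ones, while in the Nsdhl panel all 4 WT libraries stand above all 4 KO-labelled ones. Only WT4 of the WT libraries lies above 670 on the x axis, and no KO-labelled library lies below 790.

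Upstream of synthesis, 4 of 4 genes of acetyl-CoA supply were called lower (median log2 fold change -1.62), against 18.6% of all genes tested. The lowest log2 fold change of the list was that of Acss2, cytosolic acetyl-CoA synthetase, from 43.8 ± 8.97 to 5.42 ± 1.34 FPKM (-2.91 ± 0.19, limma adjusted p = 4.36e-05). Acly, ATP citrate lyase (-1.66, adjusted p = 4.51e-05), and Slc25a1, the mitochondrial citrate carrier (-1.59, adjusted p = 0.000963), were lower as well. The call of Acat1, the mitochondrial thiolase, was the weakest (-0.43, limma adjusted p = 0.0459). Its groups overlapped, and its call was lost under each of the 4 other scalings and when any library but WT4 or KO4 was left out (adjusted p up to 0.117).

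In the list of sterol sensing and SREBP processing, 3 of 10 genes were lower and none higher (median -0.19). Over all genes tested, 18.6% were lower and 11.7% higher. Insig1, itself an SREBP target that retains SCAP, fell from 153 ± 24.4 to 36.6 ± 11.4 FPKM (-2.08 ± 0.21, limma adjusted p = 0.000267). Rnf145 (-0.45, adjusted p = 0.00195) and Insig2 (-0.38, adjusted p = 0.00825) were the others, and both calls were lost scaled to a common sum. The transcript of Srebf2, the factor that drives the synthesis genes, was 7.64 ± 1.19 FPKM in WT against 7.12 ± 0.379 FPKM in the KO-labelled libraries (-0.09, limma adjusted p = 0.553). These values are of its transcript, and its cleavage was not measured. Of 4 other SREBP2-linked genes, 3 were lower, against 18.6% of all genes tested. They were Pcyt2 (-1.24), Aacs (-0.93) and Tmem97 (-0.78), at limma adjusted p from 0.000912 to 0.00998. The call of Tmem97 was lost without WT1 and WT2, the libraries highest in liver markers. Of the genes named from these first 3 lists, Insig1, Pcyt2, Acss2, Acly and Slc25a1 were also called lower relative to the adipocyte markers. Rnf145, Insig2, Aacs, Tmem97 and Acat1 were not, with Insig2 and Acat1 called higher there. Srebf2, not called above, was also called higher on that scale.

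Among LXR factors and other LXR targets, 2 of 7 genes were lower and 1 higher (median 0.00), against 18.6% and 11.7% of all genes tested. Lpcat3, a phospholipid acyltransferase, was lower (-1.01, limma adjusted p = 0.00105). Arl4c was higher (0.56, adjusted p = 0.0216) and Nr1h3, which encodes LXRα, lower (-0.29, adjusted p = 0.0495), and both calls were lost without WT1, WT2 or KO1, among other libraries. Nr1h3 also lost its call under each of the 4 other scalings. Of 12 genes of isoprenoid use, 5 were called lower, against 18.6% of all genes tested, led by Rce1, Fnta and Coq2 (-0.83, -0.54 and -0.53; limma adjusted p from 0.00103 to 0.00670). Scaled to a common sum, the call of Rce1 alone was left of these 5, and 2 other genes of the list were called higher. Of 8 tested other lipoprotein receptors and their partners, 3 were lower, against 18.6% of all genes tested. These were Sorl1 (-1.40), Lrpap1 (-1.21) and Sort1 (-0.44), at limma adjusted p from 0.000225 to 0.0110. Of 10 tested sterol carriers and genes of ester turnover, 1 was lower and 1 higher, against 18.6% and 11.7% of all genes tested. Osbpl5 was lower (-0.46, limma adjusted p = 0.00389) and Stard3 higher (0.43, adjusted p = 0.0285). The call of Stard3 was lost without WT1, WT2, WT3, KO1 or KO2 (adjusted p up to 0.0774). Those of Sort1 and Osbpl5 were lost scaled to a common sum. Relative to the adipocyte markers, Sorl1 alone of the lower genes named in this paragraph was still called lower. Arl4c and Stard3 were still called higher there.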

How the data were processed

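Poly(A) RNA of 8 libraries was sequenced. The authors deposited 1 table of FPKM values for 28295 genes. The submitters' processing notes name HISAT2 2.0.5, featureCounts and build mm10. Annotation release and strand setting are not given in the sources used here. All 8 columns were mapped to samples by name. With GENCODE M21 exon lengths, matched for 28255 genes, 97.9% of values between 0.5 and 200 reads lay within 0.02 of a whole read. This gave FPKM denominators of 22.9 to 25.5 M for WT libraries against 24.2 to 29.1 M for KO-labelled ones (M, 1000000 reads).

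FPKM values are not counts, so log2(FPKM + 0.5) was tested with limma 3.58.1 (R 4.3.3; limma-trend, robust, two-sided, no covariate). Adjustment was Benjamini-Hochberg over the 14400 genes with a mean of at least 0.5 FPKM, and calls were made at adjusted p under 0.05. Errors of log2 fold changes are limma's standard errors, and other errors are SDs over 4 libraries. The fit was tested on simulated data.

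The 31 genes, the lists and the motifs were chosen with earlier results of these data known, so counts per list are descriptions and no list was tested. All 31 genes are accounted for. From each other pathway list at most the 3 called genes with the smallest adjusted p were named, with 3 exceptions. These were Acat1, called with a larger adjusted p, and Srebf2 and Cyp7b1, which were not called. Copies were sought with blastn 2.17, and promoters are RefSeq's. In all, 22 other settings were run: pseudocounts, filters, scalings, limma without trend, voom on recovered reads, a replicate block, libraries left out, and, chosen after seeing the data, a fit without WT4 and KO4 and one relative to adipocyte markers. Python 3.11.15 was used for tables and figures. Some genes of the pathway are not reported here.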

Additional observations from a re-analysis of the deposited data

Results flagged for a closer look

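Of 62 groups of 4 libraries, 2 held a value far from the other 3 of its group, where chance gives about 1 in 20 groups. Hmgcs1 was 60.5 FPKM in WT1, against 43.1 to 45.6 FPKM in the other 3 of WT. The gap to the nearest library was 0.860 of the whole range. Abca1 was 24.6 FPKM in WT2, against 30.9 to 31.3 FPKM in the other 3, a gap of 0.947 of the range. Without WT1, Hmgcs1 was still called lower, since its limma adjusted p was at most 0.0113 with any 1 library left out. Abca1 was not called in any of those fits (adjusted p from 0.559 to 0.911).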

How the results depend on the processing

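The same 15 synthesis genes were lower in 20 of 22 settings. They were 13 of 15 without WT1 and WT2 and 5 relative to adipocyte markers, where 3 others were higher. Of the 11 other genes, those called higher numbered 0 with no filter, under the replicate block and without WT1 and WT2, 0 to 1 with 1 library left out, 2 after quantile normalization and with voom, 3 without WT4 and KO4 (extreme libraries of some of these genes, so that leaving them out had to widen the difference), and 6 relative to adipocyte markers. There, 1 was lower. Counts of all genes, higher and lower, were 4226 and 1190 scaled to a common sum, 4202 and 1267 scaled to listed reads, 4457 and 1253 with voom, 722 and 1036 without WT1 and WT2, and 11391 and 178 relative to adipocyte markers. With 1 library left out, they were 1089 to 1937 and 1858 to 2803.

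Signs turned relative to adipocyte markers for Idi1 (0.16), Ggps1 (0.80), Tm7sf2 (0.13), Lbr (0.77), Msmo1 (0.0789), Hsd17b7 (0.14), Scarb1 (0.10), Mylip (0.73), Stard4 (0.43) and Soat1 (0.85). Ggps1, Lbr, Mylip and Soat1 turned to 0.21, 0.18, 0.14 and 0.28 scaled to a common sum, 0.18, 0.15, 0.12 and 0.23 scaled to listed reads, and 0.18, 0.16, 0.12 and 0.27 with voom. Mylip was 0.0358 after quantile normalization, and Soat1 was 0.0128 with a pseudocount of 0.1 and 0.0326 with median-of-ratios scaling. Without WT4 and KO4, Fdft1 was -0.0317 and Soat1 0.53. Without WT1 and WT2, Abca1 was -0.0332. With 1 library left out, Ggps1 ran from -0.13 to 0.0353, Soat1 from -0.20 to 0.38 and Abca1 from -0.0298 to 0.10. Relative to adipocyte markers, every log2 fold change shifts by the same amount, and the median over all tested genes went from -0.02 to 0.83. The turns of sign in that setting therefore follow by construction. The cause of the others was not tested.

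The labels state no pairing by replicate number. Deviations of same-numbered libraries correlated at -0.06, -0.13, 0.17 and -0.32, and 1 of 8 libraries correlated best with its own number. So few libraries cannot decide whether the numbers pair them. With the replicate block, 1113 genes were higher and 1995 lower, and Lrp1 (adjusted p = 0.0980) and Stard4 (adjusted p = 0.0527) were not called. Fdps, at 5 to 42 reads a library, was too shallow to test.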

Other observations

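Of 3 enzymes that hydroxylate cholesterol or its oxysterol products, 2 were called higher, against 11.7% of all genes tested, and the groups were apart in Cyp27a1 only. Cyp27a1, the mitochondrial sterol 27-hydroxylase, was 16.4, 23.0, 17.7 and 21.1 FPKM in WT against 42.8, 38.4, 43.9 and 39.8 FPKM in the KO-labelled libraries. Every KO-labelled library lay above every WT library, and the means were 19.5 ± 3.02 and 41.2 ± 2.59 FPKM (SD, n = 4 each; log2 fold change 1.07 ± 0.11, limma adjusted p = 0.000362). Ch25h, cholesterol 25-hydroxylase, was 0.232, 0.340, 0.614 and 0.301 FPKM in WT against 2.34, 1.39, 1.74 and 0.479 FPKM in the KO-labelled libraries. It was called higher with overlapping groups (1.11 ± 0.31, limma adjusted p = 0.0278), but not without WT1, WT2, WT4, KO1, KO2 or KO3 (adjusted p up to 0.0787). The other gene of the list, Cyp7b1, did not pass the test (0.18, limma adjusted p = 0.541). Macrophages are known to express Cyp27a1 and Ch25h. The summed macrophage marker level was higher in each KO-labelled library than in WT1, WT2 and WT3, with WT4 above KO3 and KO4. By that level, WT4 was the highest WT library and KO4 the lowest KO-labelled one. In Cyp27a1 these were WT2 and KO2, and in Ch25h WT3 and KO4. What macrophages contribute to these values was not tested.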
